A study of Mus musculus with 8 samples.

Results

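Gad1, Gabbr2 and Gabra4 are 3 genes of inhibitory signalling by GABA whose 3′ ends were counted in whole brain of mice with and without the D50A allele of Cstf2. They were picked by gene symbol from 10060 genes listed in either of 2 deposited count tables, and all 3 are in both tables. Earlier results of these data had shown for each of them a difference between genotypes in the share of reads that end in an upstream exon, so that share is described here without a test. The first table lists reads at a proximal and a distal polyadenylation site within the 3′-most exon (called the last exon here) of 7951 genes. The second lists reads ending in an exon upstream of it and reads ending in the last exon, for 6147 genes. The animals were 3 wild-type mice and 5 mice labelled Cstf2D50A, killed at 50 days of age, and the labels name no treatment. Mutants and wild-type littermates came from a line backcrossed for 4 generations to C57BL/6NCrl and then bred within the colony. The allele changes residue 50 in the RNA recognition motif of CSTF2, a cleavage stimulation factor subunit that binds the nascent transcript downstream of its cleavage site. The labels name no Cre driver or transgene, and they do not give the sex of the animals.

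GABA is the main inhibitory transmitter of the adult brain. Gad1 encodes GAD67, a glutamate decarboxylase that makes GABA from glutamate in inhibitory neurons. Gabra4 encodes the alpha4 subunit of GABA-A receptors, which are ligand-gated chloride channels and in thalamus, dentate gyrus and striatum often carry this subunit outside the synapse. Gabbr2 encodes the subunit of the GABA-B receptor that couples to G proteins, while its partner Gabbr1 binds the transmitter. An mRNA that ends in an upstream exon lacks the last coding part of the gene, whereas a choice between sites within the last exon commonly changes the length of the 3′ untranslated region.

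The libraries held 9616953 to 17530761 reads in the first table and 7075383 to 13145966 in the second, and wild type 2 was the deepest. Markers of the labelled tissue were present: none of 7 measured neuron, 4 astrocyte, 6 oligodendrocyte or 4 microglia markers had a library without reads in the first table. Markers of cerebellar neurons differed between libraries. The mean of 10 measured granule cell markers (of 14 listed) was 7.16, 6.95 and 7.07 log2 CPM (reads relative to the size of the library in that table, scaled by TMM) in wild type 1, 2 and 3, 5.16, 5.16, 5.08 and 5.13 in mutants 1 to 4, and 6.97 in mutant 5. Their summed level ran from 2195 to 2579 CPM in wild type and from 667 to 2171 CPM in mutants. Mutant 5 thus lay within the wild-type range for the mean, and the other mutants lay below it. The mean of 8 Purkinje cell markers (of 15 listed) ran from 6.83 to 7.15 in wild type, was 7.09 in mutant 5 and was at most 6.05 in the other mutants, with summed levels of 1689 to 2036 and 823 to 1739 CPM. Gabra6, the GABA-A subunit of cerebellar granule cells, singled out after its values were seen, had 280, 400 and 300 reads in wild type 1 to 3, 253 in mutant 5, and 2, 2, 0 and 0 in mutants 1 to 4. The same split of libraries appeared in striatal projection neuron markers and in the summed level, but not the mean, of interneuron markers. The mean of 9 striatal projection neuron markers (of 12 listed) was 5.60 to 5.84 in wild type, 5.70 in mutant 5 and 6.15, 6.21, 6.07 and 5.99 in mutants 1 to 4, with summed levels of 619 to 820 CPM in wild type and 691 to 1110 CPM in mutants. The mean of 12 interneuron markers (of 23 listed) was 5.77 to 5.90 in wild type and 5.73 to 5.80 in mutants, but their summed level was 2483, 2195 and 1769 CPM in wild type 1 to 3, 2116 CPM in mutant 5 and 1321, 1300, 1479 and 1365 CPM in mutants 1 to 4. Markers of excitatory neurons (7 of 8 listed) averaged 7.53, 8.31 and 8.38 in wild type 1 to 3 and 8.60, 8.52, 8.52, 8.53 and 8.34 in mutants 1 to 5, so wild type 1 was low. Markers shared by all neurons (7 of 8 listed) averaged 8.74, 8.93 and 9.19 in wild type and 9.38, 9.31, 9.12, 9.37 and 9.07 in mutants. In whole tissue, fewer cells of a type in the sample and less RNA per cell cannot be told apart. Among mutants only number 5 had cerebellar markers near the wild-type level, so genotype and these markers are nearly confounded. In the results that follow, a difference between genotypes can thus hardly be told apart from a difference in cerebellar content. The part of these marker differences in those results was not tested.

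**Figure D1:**
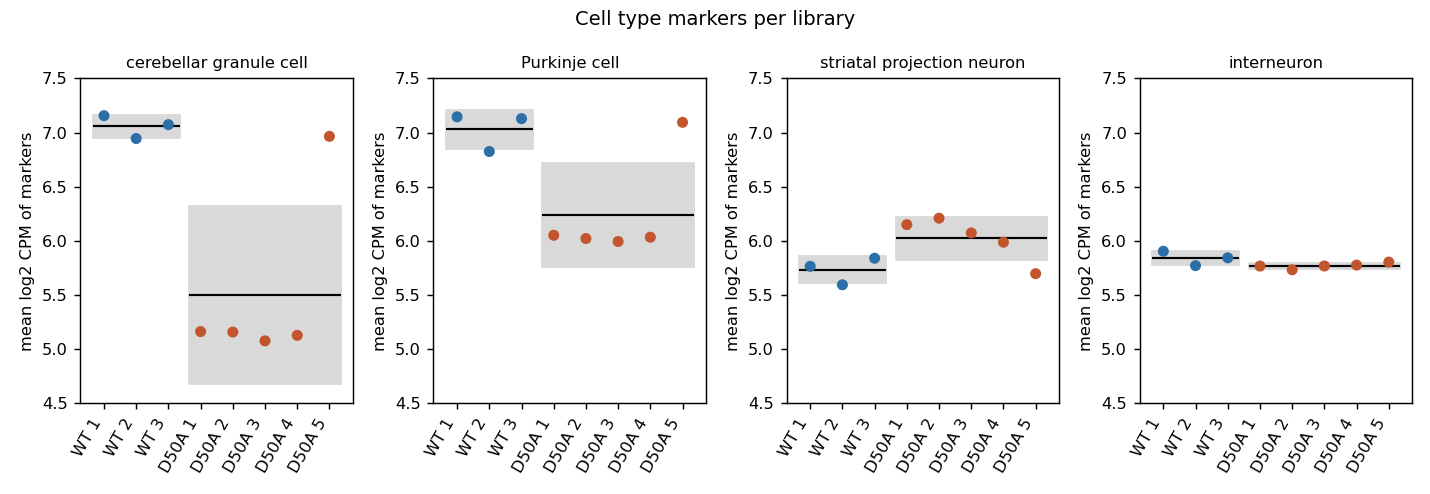
Mean log2 CPM of the measured markers of 4 neuron types in each library (blue, wild type, WT; orange, mutant, D50A; line and grey band, mean and SD of a genotype; the axis does not start at 0). Granule cell markers lie at 6.95 to 7.16 in wild type and 6.97 in mutant 5, and at 5.08 to 5.16 in the other mutants.

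Gad1 transcripts ended almost always in the last exon, and the rare upstream ends made up a smaller share of its reads in mutants. Wild type 1, 2 and 3 had 2, 8 and 8 reads in the upstream exon beside 192, 279 and 648 in the last exon. Mutants 1 to 5 had 1, 2, 5, 3 and 3 beside 873, 948, 589, 1161 and 382. These are upstream shares of 1.03%, 2.79% and 1.22% in wild type and of 0.114%, 0.211%, 0.842%, 0.258% and 0.779% in mutants. Every mutant lay below every wild type. The means were 1.68 ± 0.964% (SD, n = 3) and 0.441 ± 0.342% (SD, n = 5). Each share rests on few reads. The exact 95% binomial interval, which covers counting error only, ran from 0.125% to 3.67% in wild type 1 and from 0.161% to 2.26% in mutant 5, so these libraries cannot be separated at this depth. The intervals of wild type 1 and of wild type 3 (0.528% to 2.39%) overlapped those of all 5 mutants, also that of mutant 1 (0.0029% to 0.636%). The interval of wild type 2 (1.21% to 5.42%) lay above those of mutants 1, 2 and 4 and overlapped those of mutants 3 and 5. The log2 ratio of last-exon to upstream reads, with 0.5 added to each count, was higher by 2.08 in mutants, and leaving out single libraries gave 1.67 to 2.37.

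At Gabbr2 the upstream share was likewise smaller in mutants, on the largest upstream counts of the 3 genes. The upstream exon held 38 of the 1005 reads in wild type 1, 55 of 3528 in wild type 2 and 42 of 2657 in wild type 3, which gives 3.78%, 1.56% and 1.58%. In mutants 1 to 5 there were 26, 24, 32, 35 and 27 upstream reads beside 2881, 3143, 3271, 3498 and 2515 in the last exon, or 0.894%, 0.758%, 0.969%, 0.991% and 1.06%. The genotypes did not overlap, the mutants were close together and wild type 1 stood above the other wild types. The means were 2.31 ± 1.28% (SD, n = 3) and 0.935 ± 0.116% (SD, n = 5). The difference in log2 ratio was 1.19, and 0.76 without wild type 1. The exact 95% intervals of mutants 1, 3, 4 and 5 had upper ends of 1.31%, 1.36%, 1.38% and 1.54%. They overlapped those of wild type 2 (1.18% to 2.02%) and wild type 3 (1.14% to 2.13%), and only that of mutant 2 (0.486% to 1.13%) lay below both. The interval of wild type 1 (2.69% to 5.15%) lay above those of all 5 mutants.

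Gabra4 went the other way, with a larger share of upstream ends in most mutants. Upstream reads numbered 3, 1 and 5 in wild type 1 to 3, beside 1324, 1524 and 1101 in the last exon, and the shares were 0.226%, 0.0656% and 0.452%. In mutants 1 to 5 they numbered 25, 11, 15, 29 and 5 beside 1080, 1373, 1478, 1291 and 1199, with shares of 2.26%, 0.795%, 1.00%, 2.20% and 0.415%. Mutants 1 and 4 were highest, and mutant 5 lay below wild type 3, so the genotypes overlapped. The means were 0.248 ± 0.194% (SD, n = 3) and 1.33 ± 0.844% (SD, n = 5). The log2 ratio of last-exon to upstream reads differed by -2.31 between mutants and wild type, and by -2.86 to -1.68 when single libraries were left out.

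**Figure D2:**
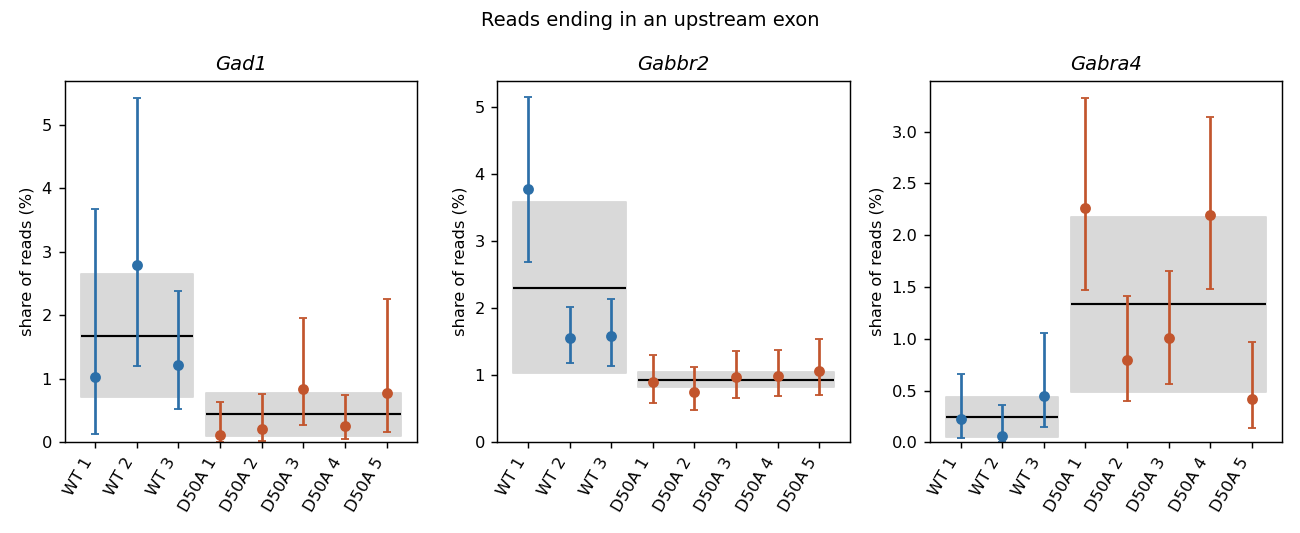
Share of reads ending in an upstream exon (percent) per library for Gad1, Gabbr2 and Gabra4, with exact 95% binomial intervals as bars and the mean and SD of a genotype as line and band (blue, wild type; orange, mutant; each panel has its own scale). Mutants lie lower for Gad1 (0.114% to 0.842% against 1.03% to 2.79%) and Gabbr2 (0.758% to 1.06% against 1.56% to 3.78%), and mutant 5 at 0.415% lies among the wild types for Gabra4.

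Over all 6001 tested pairs of this table the genotypes did not overlap in 364, or 6.07%, with the last-exon share higher in mutants in 4.25% and lower in 1.82%. The 2 of 3 genes without overlap, Gad1 and Gabbr2, were chosen on this comparison, so nothing is read from that count. In wild type the pooled upstream share of the 3 genes was below the median gene of the table (6.44%): 1.58% for Gad1, 1.88% for Gabbr2 and 0.227% for Gabra4, with 25.3%, 27.8% and 5.79% of genes lower still. Over all genes together, upstream exons held 11.1% to 12.4% of the reads in wild type and 10.1% to 11.4% in mutants.

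Splitting the shares into the level of each end showed different components in the 3 genes. For Gad1 the upstream end had 0.298, 0.639 and 0.866 CPM in wild type 1 to 3 and 0.125, 0.214, 0.529, 0.280 and 0.354 CPM in mutants 1 to 5, which overlap. The last-exon end of Gad1 had 28.6, 22.3 and 70.1 CPM in wild type and 109, 102, 62.3, 108 and 45.1 CPM in mutants. Mutants 3 and 5 lay below wild type 3. For Gabbr2 both components differed: the upstream end was at 5.66, 4.39 and 4.55 CPM in wild type and between 2.57 and 3.39 CPM in mutants, while the last-exon end was at 144, 277 and 283 CPM and at 297 to 359 CPM. Neither end of Gabbr2 overlapped between genotypes, but how often single ends separate over all genes was not counted, so nothing is read from this. For Gabra4 the last exon was at 197, 122 and 119 CPM in wild type and 121 to 156 CPM in mutants, and the upstream end at 0.447, 0.0799 and 0.541 CPM against 3.11, 1.18, 1.59, 2.71 and 0.590 CPM. The mean of the Gabra4 upstream end was 5.16 times that of wild type in mutants, and its last-exon end 0.959 times. Mutant 5 and wild type 3 each had 5 upstream reads of Gabra4, so the gap between their CPM values comes from scaling alone. As components of the chosen share, these levels carry no test.

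**Figure D3:**
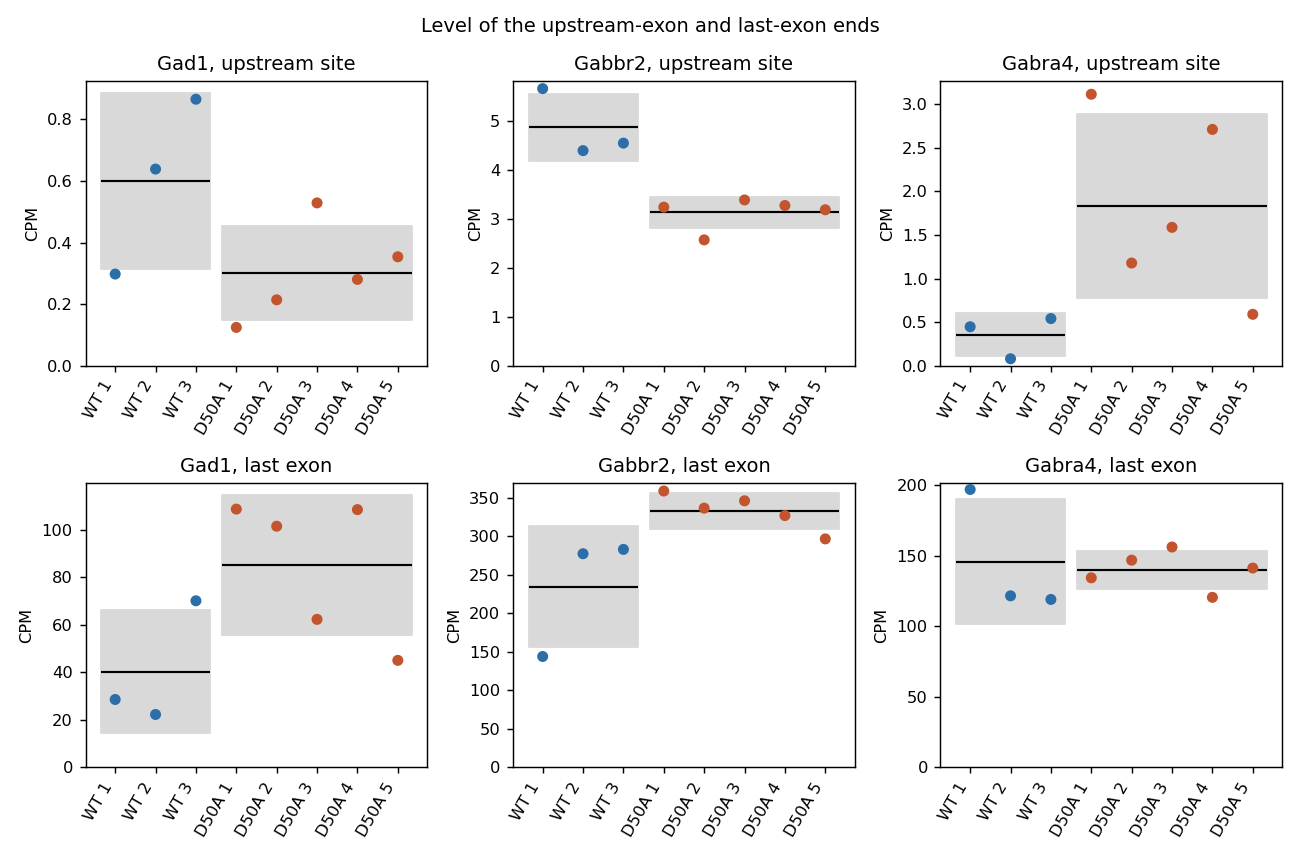
Level in CPM of the upstream-exon end (top) and the last-exon end (bottom) of the 3 genes in each library, with the mean and SD of each genotype as line and band (blue, wild type; orange, mutant; scales differ between panels and start at 0). The upstream end of Gabra4 reaches 3.11 CPM in mutant 1 against at most 0.541 CPM in wild type, while its last exon overlaps between genotypes.

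Within the last exon, the listed sites of Gad1 lie 513 bases apart, at positions 70439558 (proximal) and 70440071 (distal) as listed on the mm9 build, with no chromosome named. Those of Gabbr2 are 25 bases apart, at 46675215 and 46675190, and no pair of the table lies closer. Those of Gabra4 are 33 bases apart, at 71961004 and 71960971. The median over all pairs is 629 bases. Between 0.106% and 6.51% of last-exon reads of the 3 genes were at neither listed site. For Gabra4 this part was 0.755%, 1.18% and 3.18% in wild type 1 to 3 and 6.48%, 6.05%, 2.23%, 6.51% and 1.08% in mutants 1 to 5. The site shares below leave these reads out.

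The distal site of Gad1 held 89.4%, 80.7% and 91.8% of the reads of both sites in wild type 1 to 3 and 95.5%, 95.4%, 92.7%, 95.8% and 90.4% in mutants 1 to 5. Mutant 5 lay below wild type 3, and the other mutants lay above every wild type. The means were 87.3 ± 5.82% (SD, n = 3) and 93.9 ± 2.34% (SD, n = 5), with a log2 change of 1.18 in the ratio of distal to proximal reads (SE 0.403, edgeR quasi-likelihood adjusted p = 0.38). Here the distal end differed most: it had 18.8, 13.3 and 48.6 CPM in wild type and 30.5 to 78.8 CPM in mutants, whereas the proximal end had 2.24 to 4.34 and 3.23 to 3.68 CPM. Without wild type 2 the log2 change was 0.74.

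For Gabbr2 the distal site held 62.0%, 63.7% and 70.0% in wild type and 76.2%, 75.3%, 72.4%, 71.7% and 65.1% in mutants. Mutant 5 lay among the wild types. The log2 change was 0.47 (SE 0.218, edgeR adjusted p = 0.387). The proximal site was the main site of Gabra4, and its distal site held 19.3%, 17.7% and 20.1% in wild type and 26.8%, 24.8%, 22.6%, 23.1% and 17.4% in mutants. Mutant 5 was the lowest of all 8 libraries. The log2 change of Gabra4 was 0.33 (SE 0.21, edgeR adjusted p = 0.458). None of the 3 differences passed the test over the table. In all 3 genes the genotypes overlapped, and only through mutant 5, which lay below wild type 3 each time. The genotypes did not overlap in 4.29% of the 7876 tested pairs (distal share higher in mutants in 2.59%, lower in 1.7%). Of these pairs edgeR called 0%, and 1018 (12.9%) had an unadjusted p under 0.05. DESeq2 called 21 (0.267%) and limma 0, none of them among the 3 genes.

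**Figure D4:**
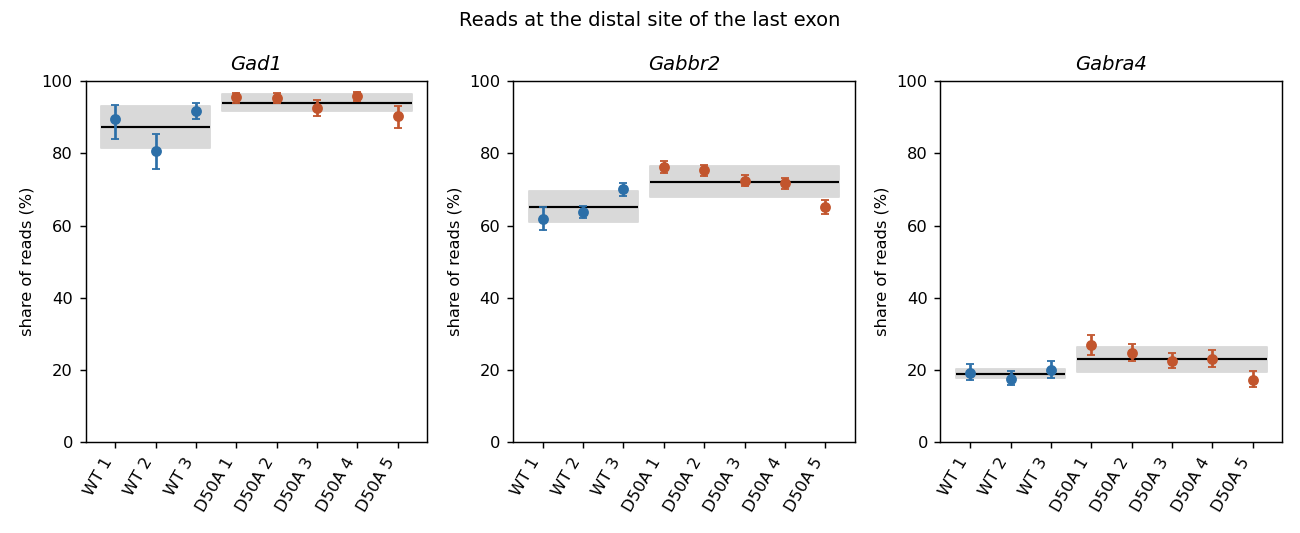
Share of the reads of both last-exon sites that lie at the distal site (percent) per library, with exact 95% binomial intervals as bars and the mean and SD of each genotype as line and band (blue, wild type; orange, mutant). Mutants 1 to 4 lie above all wild types in each gene, and mutant 5 (90.4%, 65.1% and 17.4%) lies below wild type 3.

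The overall level of Gad1, from the sum of upstream and last-exon reads, was 28.9, 22.9 and 71.0 CPM in wild type 1 to 3 and 109, 102, 62.8, 109 and 45.4 CPM in mutants 1 to 5. Wild type 3 exceeded mutants 3 and 5. The log2 change was 1.06 (SE 0.404, edgeR adjusted p = 0.327). Leaving out single libraries gave 0.77 to 1.73, the highest without wild type 3. Gabbr2 was at 150 (wild type 1), 282 and 288 CPM and at 362, 339, 349, 330 and 300 CPM, with every mutant above every wild type (log2 change 0.49, SE 0.199, edgeR adjusted p = 0.327). Wild type 1 was the low library, and without it the change of Gabbr2 was 0.23. Wild type 1 was also lowest in the markers of excitatory neurons (7.53 against 8.31 to 8.60 log2 CPM in the other libraries). The neuron markers were highest in mutants 1, 2 and 4 (9.31 to 9.38 log2 CPM), the 3 libraries with the most Gad1, and lowest in wild type 1 and 2, the pair with the least. The part of this in the levels of Gad1 and Gabbr2 was not tested. Gabra4 was at 198, 122 and 120 CPM in wild type and at 123 to 158 CPM in mutants, with a log2 change of -0.04 (SE 0.174, edgeR adjusted p = 0.901). Its estimate was 0.22 without wild type 1, and 0.013 with library totals in place of TMM. The genotypes did not overlap in 4.78% of the 6001 genes, with mutants above in 2.28% and below in 2.5%. Of these genes edgeR and DESeq2 called 0%, and 904 (15.1%) had an unadjusted edgeR p under 0.05. Scaled separately, the first table gave log2 changes of 1.09 for Gad1 (SE 0.425, edgeR adjusted p = 0.343), 0.52 for Gabbr2 (SE 0.21, edgeR adjusted p = 0.343) and -0.09 for Gabra4 (SE 0.188, edgeR adjusted p = 0.79). That of Gad1 was 0.78 without wild type 2 and 1.78 without wild type 3. Without wild type 1, that of Gabbr2 was 0.25 and that of Gabra4 0.18. In that table the genotypes did not overlap in 4.76% of genes, with mutants above in 2.45% and below in 2.31%. Gabbr2 was among those with mutants above there too, largely on the same last-exon reads. In both tables the summed level of the 3 genes consists mainly of last-exon reads, a part of the chosen share. The level tests of these genes reuse those reads, so nothing is read from them.

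The libraries with cerebellar markers at the wild-type level can be set side by side. Mutant 5 lay within the wild-type range for the upstream share of Gabra4, the distal shares of Gad1 and Gabbr2 and the level of Gad1 and Gabra4. It lay below that range for the distal share of Gabra4 and for the upstream shares of Gad1 and Gabbr2, and above it for the level of Gabbr2 (300 CPM against at most 288). With 1 mutant of this kind there is no test of these positions.

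Other genes of the GABA system were examined through 6 lists written with earlier results of these data known: synthesis, transport and breakdown of GABA, GABA-A subunits, the GABA-B receptor with its effectors, receptor scaffold and trafficking, chloride transport, and interneuron markers. Apart from the 3 genes, 35 of the 94 listed genes were tested in the upstream-exon table. In usage of the last over the upstream exon, none of the 35 passed by edgeR, DESeq2 or limma (0 calls each). An unadjusted edgeR p under 0.05 was reached by 6 of them toward the last exon and by 0 toward the upstream exon. Over all 6001 pairs edgeR called 0%, DESeq2 5 (0.0833%) and limma 0, and 10.4% and 3.63% reached that unadjusted p in these directions (14% in all). The log2 change was above 0 in 24 of the 35, beside 62.2% of all pairs, and its median was 0.33, beside 0.17 over all pairs.

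Among genes of GABA synthesis and transport, the last exon of Gad2, the other glutamate decarboxylase, held 96.9 ± 0.158% of its reads in the wild-type libraries and 97.9 ± 1.09% in those of mutants (mean ± SD over 3 and 5 libraries, as for the genes that follow, with a log2 change of 0.60, SE 0.425, edgeR adjusted p = 0.522). The change of Gad2 was 0.43 without mutant 3 and 0.96 without mutant 4. Slc6a11, the GABA transporter of astrocytes, was at 99.6 ± 0.203% and 99.8 ± 0.0827% (log2 change 0.81, edgeR adjusted p = 0.315; 0.47 without wild type 1). The amino acid transporter Slc38a2 used its upstream exon far more, and its last exon held 53.0 ± 1.27% and 61.1 ± 2.36% (log2 change 0.48, edgeR adjusted p = 0.351). Apart from Gad1, 6 of the 7 tested genes of this list had a log2 change above 0, beside the 62.2% of all pairs.

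Of the 6 GABA-A subunits tested apart from Gabra4, 3 had an estimate above 0 and 3 below, also beside 62.2% above 0 over all pairs. Gabra2, which encodes another alpha subunit, had 74.5 ± 3.09% and 74.3 ± 2.59% of reads in the last exon (log2 change -0.014, SE 0.235, edgeR adjusted p = 0.984). Gabbr1, the partner of Gabbr2, was at 93.3 ± 1.2% and 92.9 ± 1.16% (log2 change -0.09, SE 0.214, edgeR adjusted p = 0.88). The direction of both small estimates turned when single libraries were left out. In the scaffold list, Trak1, a kinesin adaptor, was at 63.8 ± 2.52% and 70.8 ± 1.93% (log2 change 0.46, edgeR adjusted p = 0.351). Slc12a5, the neuronal chloride exporter KCC2, was at 98.9 ± 0.249% and 99.4 ± 0.402% (log2 change 0.97, edgeR adjusted p = 0.315). Its edgeR adjusted p was 0.0372 without mutant 5, the mutant with cerebellar markers at the wild-type level. In that setting 236 of 6007 pairs (3.93%) passed. Reln, secreted by some interneurons and by cerebellar granule cells, was at 98.4 ± 0.81% and 99.3 ± 0.435% (log2 change 1.09, edgeR adjusted p = 0.337).

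**Figure D5:**
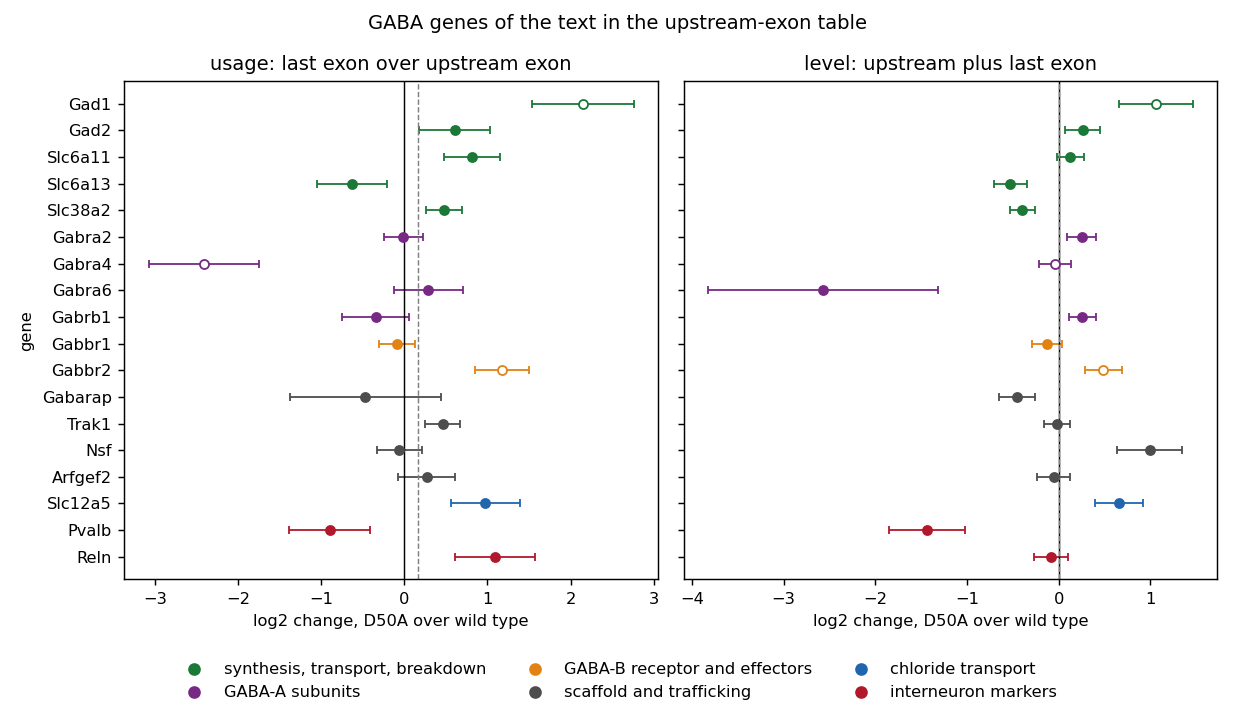
log2 change (mutant over wild type, edgeR, bars are standard errors) for 18 listed GABA genes that the text names and the upstream-exon table holds, as usage of the last over the upstream exon (left) and as level of both together (right). Colours give the gene list, open circles mark Gad1, Gabbr2 and Gabra4, and the dashed line is the median of all genes (0.17 and 0.0064). The lowest level estimate is that of Gabra6, which has 0 to 2 reads in mutants 1 to 4.

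Within the last exon, 66 listed genes other than the 3 were tested. None passed by edgeR, DESeq2 or limma (0 calls each). At an unadjusted edgeR p under 0.05, 4 of the 66 had more distal reads in mutants and 2 had fewer, beside 8.67% and 4.25% of all pairs. Their median log2 change was 0.08, beside 0.12 over all pairs. The distal share of Gabrg1, the gamma1 subunit, averaged 42.8 ± 24.8% over the wild-type libraries and 12.9 ± 11.7% over the mutant ones, on 50 to 359 reads (log2 change -2.60, edgeR adjusted p = 0.38). Gnai1, an inhibitory G protein subunit, was at 18.5 ± 4.21% and 11.98 ± 3.18% (log2 change -0.76) and Arfgef2, a vesicle exchange factor, at 5.69 ± 3.04% and 11.96 ± 3.48% (log2 change 1.19, and 0.79 without wild type 2), each with an edgeR adjusted p of 0.38. The vesicular transporter Slc32a1, which loads GABA into vesicles, was at 99.1 ± 0.191% and 99.3 ± 0.101% (log2 change 0.37, edgeR adjusted p = 0.416; 0.22 without wild type 1). Gad2 (90.1 ± 2.37% and 90.4 ± 2.75%), Gabbr1 (1.76 ± 0.15% and 1.89 ± 0.212%) and Gabra2 (68.6 ± 4.57% and 66.7 ± 2.48%) each differed by less than the spread between animals.

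In the level of the first table, none of the 66 listed genes passed by edgeR or DESeq2 (0 calls each). Of the 66, 8 were higher and 6 lower in mutants at an unadjusted edgeR p under 0.05, beside 7.29% and 7.05% of all genes (14.3% together). Over all 7876 genes edgeR called 0% and DESeq2 26 (0.33%). The median log2 change was 0.13, beside 0.0069 over all genes. Mean log2 CPM of Gad2 was 4.76 ± 0.292 for wild type and 5.04 ± 0.355 for mutants (log2 change 0.30, edgeR adjusted p = 0.446), with 0.16 without wild type 2 and 0.48 without wild type 3. Slc32a1 was at 9.32 ± 0.482 and 9.67 ± 0.0946 (log2 change 0.30, edgeR adjusted p = 0.397), with 0.067 without wild type 1 and 0.50 without wild type 3. Gabbr1 was at 11.2 ± 0.271 and 11.03 ± 0.248 (log2 change -0.13, edgeR adjusted p = 0.694). Kctd16, an auxiliary subunit of the GABA-B receptor, was at 6.43 ± 0.218 and 6.93 ± 0.183 (log2 change 0.50), and Kctd12, another, at 5.48 ± 0.227 and 5.12 ± 0.181 (log2 change -0.36), both with an edgeR adjusted p of 0.343.

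Of the GABA-A subunits, Gabrb1 was at 5.64 ± 0.6 and 6.46 ± 0.403 log2 CPM (log2 change 0.77) and Gabrd, the delta subunit that pairs with alpha4 and alpha6, at 7.34 ± 0.351 and 6.70 ± 0.388 (log2 change -0.63), each with an edgeR adjusted p of 0.343. Gabra2 (4.59 ± 0.253 and 4.77 ± 0.207) differed by less than the spread between animals. Slc12a5 was at 7.24 ± 0.703 and 8.01 ± 0.246 (log2 change 0.68), Nsf, which recycles SNARE complexes, at 6.72 ± 0.868 and 7.84 ± 0.475 (log2 change 1.00), Nlgn2, the adhesion protein of inhibitory synapses, at 5.47 ± 0.876 and 6.40 ± 0.327 (log2 change 0.79), and Slitrk3, another, at 2.97 ± 0.224 and 3.47 ± 0.393 (log2 change 0.55). Each of these had an edgeR adjusted p of 0.343. Single wild types moved several of these log2 changes. Without wild type 1, that of Nlgn2 was 0.45, that of Slc12a5 0.39, that of Nsf 0.70 and that of Gabrb1 0.58. Without wild type 3, it was 1.66 for Nsf, 1.26 for Nlgn2, 1.10 for Slc12a5 and 1.205 for Gabrb1. Of 12 tested interneuron markers, 8 had a log2 change above 0 and 4 below (median 0.14, beside 0.0069 over all genes). At an unadjusted edgeR p under 0.05, 2 were higher and 3 lower in mutants. The lower ones included the calcium-binding proteins Pvalb (9.5 ± 0.406 and 7.90 ± 0.798, log2 change -1.42) and Calb2 (8.98 ± 0.453 and 7.93 ± 0.648, log2 change -0.96), both also made by cerebellar neurons. Both had an edgeR adjusted p of 0.343 and did not pass. Without mutant 5 their edgeR adjusted p was 0.000514 and 0.0276, in a setting where 68 of 7882 genes (0.863%) passed. The transcription factor Maf was at 3.77 ± 0.356 and 3.15 ± 0.0779 (log2 change -0.64, edgeR adjusted p = 0.343).

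In the level of the upstream-exon table, none of the 35 listed genes passed by edgeR or DESeq2 (0 calls each). At an unadjusted edgeR p under 0.05, 2 were higher and 5 lower in mutants, beside 7.6% and 7.47% of all genes. Without mutant 5, edgeR called 65 of 6007 genes (1.08%). Pvalb was among them (edgeR adjusted p = 0.000269, lower in mutants), where with all libraries its edgeR adjusted p was 0.327. Gabra6 was singled out after its values were seen, so no p is given for it. The lower ones included Pvalb, at 10.01 ± 0.403 and 8.40 ± 0.788 log2 CPM (log2 change -1.44), Slc6a13, a GABA transporter of the meninges, at 5.39 ± 0.24 and 4.85 ± 0.295 log2 CPM (log2 change -0.53), Slc38a2 at 8.02 ± 0.12 and 7.62 ± 0.202 (log2 change -0.40), both with an edgeR adjusted p of 0.327, and Gabarap, a carrier of GABA-A receptors, at 8.76 ± 0.44 and 8.33 ± 0.234 (log2 change -0.45, edgeR adjusted p = 0.33; -0.23 without wild type 1). Nsf at 7.39 ± 0.787 and 8.48 ± 0.451 (log2 change 0.99, edgeR adjusted p = 0.327) and Slc12a5 at 7.70 ± 0.686 and 8.45 ± 0.23 (log2 change 0.66, edgeR adjusted p = 0.327) were the higher pair. Without wild type 3 these changes were 1.59 and 1.06. Without wild type 1 that of Slc12a5 was 0.37, and the lowest for Nsf when single libraries were left out was 0.73.

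Genes whose log2 ratio of last-exon to upstream reads varied most like that of each gene over the 8 libraries were named as a description, among 2885 pairs with a mean of 20 or more upstream reads (2884 for Gabbr2, which is itself one of them). The points share library, depth and genotype. Those of Gad1 rest on 1 to 8 upstream reads per library and those of Gabra4 on 1 to 29. As the 3 genes were chosen for a difference between genotypes, genes picked for likeness tend to differ the same way. Nothing is read from their shares. For Gad1 they were Adpgk, a glucokinase (Pearson r = 0.983), Spag9, a scaffold of JNK signalling (r = 0.983), and Tacc1, a centrosomal protein (r = 0.976). Their mean upstream shares were, in this order, 51.0%, 4.84% and 32.0% in wild type and 30.7%, 1.80% and 18.4% in mutants. For Gabbr2 they were Nisch, an imidazoline-binding protein (r = 0.974), Rasgrf1, a Ras exchange factor (r = 0.973), and Cnrip1, which binds the CB1 cannabinoid receptor (r = 0.965), with upstream shares of 11.6%, 23.0% and 11.6% in wild type and 7.81%, 15.1% and 7.22% in mutants. For Gabra4 they were the golgin Gcc2 (r = 0.987), the calcium sensor Caln1 (r = 0.975) and Plekha5 (r = 0.973). Their upstream shares were 9.01%, 6.70% and 14.2% in wild type and 12.6%, 22.8% and 21.3% in mutants.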

How the data were processed

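RNA of total brain went into 3′ end libraries made with Lexogen's QuantSeq REV chemistry, per the labels' protocols. FastQC 0.11.3, HTSeq 0.6.0, STAR 2.5 and the mm9 build appear, without roles, in the submitters' processing notes. The choice of sites, any internal priming filter and the use of strand are not stated, so overlapping genes and close paralogs are uncertain. The values are raw read counts for each site in each library, as the authors deposited them, and the first table adds a position for each site. No value column was left out (0).

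Tests took pairs averaging 20 or more reads per library with 10 or more reads in total at each site (7876 and 6001). Usage was fitted in edgeR 4.0.16 (quasi-likelihood, site by genotype, with library as a block), and level on summed counts with TMM. Benjamini-Hochberg adjustment ran over each whole table, with a threshold of 0.05. Alternatives were DESeq2 1.42.0, limma 3.58.1, other scaling and filters, and leaving out each library, in R 4.3.3. The fits were tried on simulated counts with a fixed spread and with changes only in pairs well covered at both sites. That does not cover upstream ends as rare as those of Gad1 and Gabra4. Each library has its own animal code in the labels. Nothing else says that the animals were processed apart, so p-values measure only the spread between these libraries.

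The genes and lists were chosen with earlier results of these data known. Named genes were the 3 genes, Gad2, Slc32a1, Gabbr1 and Gabra2 where tested, up to 4 genes per list and fit with an unadjusted p under 0.05, and the 3 pairs most alike to each gene. Some genes that this rule takes are not reported here.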

Additional observations from a re-analysis of the deposited data

Results flagged for a closer look

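In 24 sets of 5 mutant values (shares and levels of Gad1, Gabbr2 and Gabra4), 1 library stood far from the others. The upstream-exon end of Gabbr2 was at 2.57 CPM in mutant 2, where the other mutants lay between 3.18 and 3.39 CPM, a gap of 0.754 of the whole range against a critical value of 0.71. Chance flags about 1 in 20 such sets.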

How the results depend on the processing

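The upstream shares of Gad1, Gabbr2 and Gabra4 kept their direction in the 10 variants run for each. These added a larger number to each count, summed counts within genotype or left out single libraries. DESeq2, limma and other filters were not among them. As the genes were chosen for this difference, nothing is read from the kept direction. Leaving out single libraries gave differences in log2 ratio of 1.67 to 2.37, 0.76 to 1.41 and -2.86 to -1.68. No alternative brought the last-exon usage or the level of these 3 genes past the threshold. Without single libraries, edgeR called 0 to 236 pairs in usage between exons, 0 to 1 within the last exon, and 0 to 68 and 0 to 65 genes in level (first and second table). The 236, 68 and 65 came without mutant 5, and the 1 came without wild type 3, whose removal also gave 161 pairs between exons. DESeq2 called 5, 21, 26 and 0. The cause was not tested. Small estimates changed sign: the level of Gabra4 was -0.22 to 0.18 and -0.17 to 0.22 in the 2 tables without single libraries (0.013 in the second with library totals). Likewise Gabbr1 ran from -0.24 to 0.018 in usage between exons and from -0.25 to 0.0062 and -0.24 to 0.012 in level, Gabra2 from -0.092 to 0.12 and -0.28 to 0.022 in the 2 usages, and Gad2 from -0.17 to 0.25 within the last exon. The cause was not tested. No paired analysis was possible because the labels give no replicate numbers shared by the genotypes. Depth limits the upstream ends of Gad1 (1 to 8 reads) and Gabra4 (1 to 29 reads).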
